A study of Oryza sativa with 26 samples.

Results

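BURP13 and BURP3 are rice (Oryza sativa) genes of the BURP family, and their transcripts were followed in anthers through 8 stages of development. They were taken as the probe sets that the array's gene table assigns to LOC4345929 (BURP13) and LOC4324159 (BURP3). Each gene is read by 1 probe set, so the 2 genes are 2 of the 57194 probe sets that are not controls. Of 9 BURP genes named in the RefSeq gene table, 7 have a probe set here, and the 5 others are described after the 2 members.

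BURP proteins are found only in plants. They share a conserved C-terminal domain, carry a signal peptide for secretion in most cases, and are named after founding members from rapeseed microspores, field bean seeds, drought-stressed Arabidopsis and tomato fruit. RefSeq lists RAFTIN1 as another name of BURP13. The RAFTIN proteins of wheat and rice are made in the tapetum, the nutritive cell layer that lines the pollen sac. They are carried by Ubisch bodies, small particles on the tapetal surface, to the outer wall of the microspore, and pollen fails to mature when they are depleted. The tapetum itself breaks down as pollen develops.

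The anthers came from plants grown in paddy fields under normal conditions, with no treatment and no cultivar given in the labels, and were measured on 26 Affymetrix Rice Genome Arrays. The groups are An1 (archesporial cells forming, 3 arrays), Mei1 (pollen mother cells before meiosis, 3 arrays), M1 (4 arrays, meiocytes in leptotene), M2 (3 arrays, from zygotene into pachytene), M3 (diplotene to tetrad, 4 arrays), P1 (uninucleate microspore, 3 arrays), P2 (bicellular pollen, 3 arrays) and P3 (tricellular mature pollen, 3 arrays). Arrays of 1 stage are titled as biological replicates, without saying whether they came from separate plants, so p-values measure the spread between these arrays. An intensity of 1 is the 75th percentile of an array, and array medians ran from 0.241 to 0.428. No detection calls are given, so a low intensity cannot be told from background; precision is limited by how few arrays a stage has. Each mean is followed by the SD over its stage. Changes are differences in log2(intensity + 1), later minus earlier stage, with the SE of the fit, and a call needed both an adjusted p (Benjamini-Hochberg, limma) below 0.05 and a difference of at least 1.

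Arrays that stand apart bear on several values. P3 replicate 1 correlated at 0.842 on average with the other P3 arrays and at 0.890 with P2 replicate 3. P2 replicate 1 correlated at 0.938 on average with its own stage, the lowest of the 3 P2 arrays. P1 replicate 1 was closer to M3 replicate 2 (0.969) than to its own stage (0.966 on average), while P1 replicate 3 reached 0.915 with that same M3 array. M2 replicate 2 likewise reached 0.949 with M1 replicate 4, against 0.944 on average with its own stage, and the 3 Mei1 arrays reached 0.990 to 0.992 with an An1 array, against 0.982 to 0.990. These are Pearson correlations across probe sets, given as a description.

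BURP13 was low before meiosis and rose from leptotene (M1) to M3. It was highest in M3 (diplotene to tetrad) and P1 (uninucleate microspore), and was low again in mature pollen. In An1 the 3 arrays read 0.560, 0.352 and 0.503, and in Mei1 they read 0.480, 1.04 and 0.872. At leptotene the 4 arrays read 0.788, 1.06, 2.08 and 3.25. The M1 arrays overlapped those of Mei1, and the highest M1 array was 4.13 times the lowest. In M2 the arrays read 5.56, 14.5 and 19.7, all above every earlier array. In M3 they read 63.1, 81.9, 68.9 and 99.0, and in P1 they read 100.2, 90.7 and 100.4. The M3 and P1 arrays overlapped each other and no array of another stage reached either. In P2 the arrays read 46.7, 12.7 and 14.7, and in P3 they read 0.305, 1.22 and 1.07. The P2 arrays lay within or above the range of M2, and the P3 arrays were within or below the range of the arrays from An1 to M1.

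The arrays of BURP3 first lay above every earlier array in M3, and those of BURP13 in M2. BURP3 had its highest mean in P1. In An1 its arrays read 1.14, 0.812 and 0.901, in Mei1 they read 0.712, 0.993 and 0.813, and in M1 they read 0.759, 0.812, 0.854 and 0.906. In M2 they read 0.60, 1.67 and 1.06. All 13 arrays from An1 to M2 therefore lay between 0.60 and 1.67, with no stage apart from the rest. In M3 the arrays read 6.30, 12.2, 7.94 and 8.22, all above every earlier array. In P1 they read 16.9, 37.4 and 77.0, the widest spread in intensity units of any stage. In P2 they read 9.99, 1.20 and 2.01, and in P3 they read 0.290, 1.60 and 0.790. P2 replicate 1 was in the range of M3, while the other P2 arrays were close to the stages before M3.

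**Figure D1:**
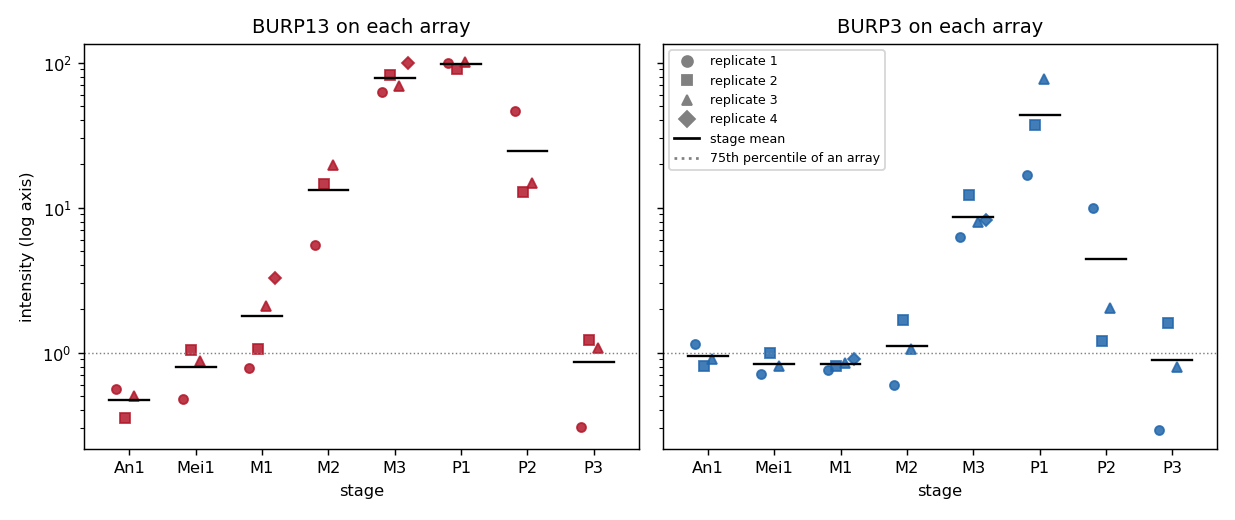
Intensity (log axis) of BURP13 and BURP3 on each of the 26 arrays by stage, with a symbol for each replicate number, a black line at the stage mean and a dotted line at 1, the 75th percentile of an array. BURP13 lies above 5 in M2 and above 60 in M3 and P1, whereas BURP3 stays at 1.67 or less until M2 and reaches 77.0 in P1.

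Levels of both genes depended on the stage. The stage means of BURP13 spanned 6.06 log2 units (limma F test, adjusted p = 1.36e-12) and those of BURP3 spanned 4.37 (adjusted p = 2.60e-08). Of all 47799 probe sets tested, 24.2% passed this F test with a span of at least 1, so the call alone does not set the 2 genes apart. By the size of the span BURP13 ranked 159 and BURP3 ranked 542 among the 47799. The members were chosen with earlier results of these data known, so these ranks are descriptions.

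The rise of BURP13 took 2 steps. From M1 to M2 its mean went from 1.8 ± 1.12 (n = 4) to 13.3 ± 7.14 (n = 3), a log2 change of 2.28 (SE 0.38, limma adjusted p = 0.00039), where 0.58% of the probe sets tested were called higher. From M2 to M3 it went on to 78.2 ± 15.9 (n = 4), a change of 2.61 (SE 0.38, adjusted p = 6.85e-05), where 1.06% were called higher. The arrays did not overlap at either step. Before that, changes of 0.28 (SE 0.40) from An1 to Mei1 and of 0.56 (SE 0.38) from Mei1 to M1 were not called, at adjusted p of 1.0 and 0.486 in limma. From M3 to P1, at 97.1 ± 5.52 (n = 3), the change of 0.33 (SE 0.38) was not called either (adjusted p = 0.861).

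BURP3 also had 2 called rises, from M2 to M3 and from M3 to P1. From M1 to M2 its change was 0.17 (SE 0.42, limma adjusted p = 0.823), from 0.833 ± 0.0623 (n = 4) to 1.11 ± 0.537 (n = 3). From M2 to M3 it rose to 8.67 ± 2.5 (n = 4), a change of 2.19 (SE 0.42, adjusted p = 0.00119). From M3 to P1 it rose to 43.8 ± 30.6 (n = 3), a change of 2.0 (SE 0.42, adjusted p = 0.00456), where 0.59% of the probe sets tested were called higher. The arrays did not overlap at either rise. The second rise rested on P1 replicate 3: without it the change was 1.47 and was not called (adjusted p = 0.0674).

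Both genes fell once the microspore had divided. From P1 to P2 BURP13 fell to 24.7 ± 19.1 (n = 3), a log2 change of -2.17 (SE 0.40, limma adjusted p = 0.000271), and BURP3 fell to 4.40 ± 4.86 (n = 3), a change of -3.17 (SE 0.45, adjusted p = 1.06e-05). At this transition 2.24% of the probe sets tested were called lower. From P2 to P3 BURP13 fell further, to 0.863 ± 0.489 (n = 3), a change of -3.58 (SE 0.40, adjusted p = 4.78e-07), where 4.07% were called lower. The corresponding change of BURP3, to 0.895 ± 0.663 (n = 3), was -1.20 (SE 0.45, adjusted p = 0.0284) with overlapping arrays. That call was lost without P2 replicate 1 (-0.50, adjusted p = 0.284), without P3 replicate 1 (-0.95, adjusted p = 0.0866) and without P3 replicate 3 (-1.19, adjusted p = 0.0721). The falls of BURP13 were called without any 1 of the 26 arrays. In whole anthers, fewer cells of a type and less RNA per cell cannot be told apart.

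**Figure D2:**
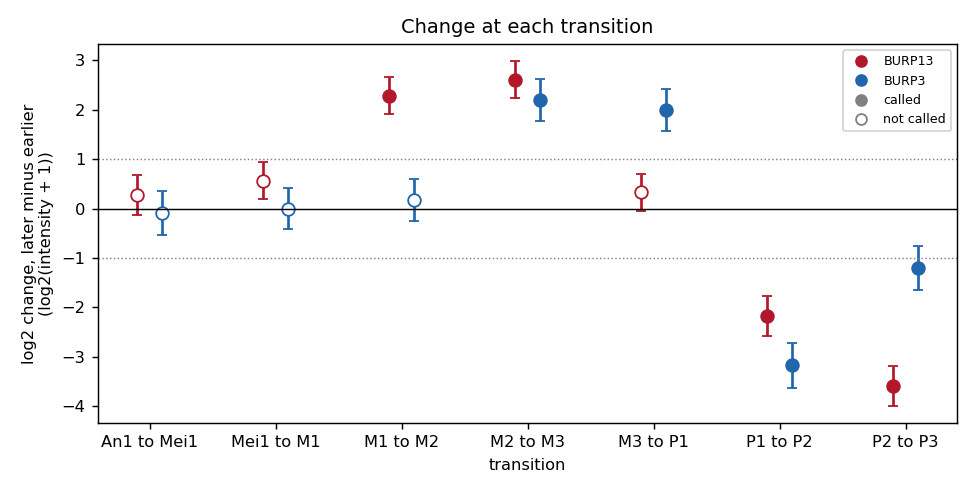
Log2 change of BURP13 and BURP3 at each of the 7 transitions (log2(intensity + 1), later minus earlier stage), with the SE of the limma fit as bars, filled points where the change was called and dotted lines at 1 and -1. BURP13 is called from M1 to M2 (2.28) and not from M3 to P1 (0.33), and BURP3 is called from M3 to P1 (2.0) and not from M1 to M2 (0.17).

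Whether the 2 profiles differ was tested on log2 BURP13 minus log2 BURP3 on each array. That difference depended on the stage (F = 24.1 over 26 arrays, permutation p = 1e-05, the smallest that 100000 permutations can give). The stage means of the 2 genes span 6.06 and 4.37 log2 units, and unequal spans alone would make the difference depend on the stage. The F test therefore cannot tell a shift in timing from a difference in size. Across single transitions, BURP13 gained 2.11 log2 units more than BURP3 from M1 to M2 and less from M3 to P1, by a difference of -1.67. Each had an exact two-sided permutation p of 0.0571, the smallest that 3 arrays against 4 allow, and 0.175 after adjustment over the 7 transitions. The largest of the 7 differences, -2.38 from P2 to P3, had an exact p of 0.1, the smallest that 3 arrays against 3 allow, and 0.175 after adjustment. The other differences were 0.36 from An1 to Mei1, 0.57 from Mei1 to M1, 0.41 from M2 to M3 and 1.00 from P1 to P2 (exact p = 0.1 to 0.343). With these numbers of arrays no single transition could reach 0.05. Set against its own P1 mean, BURP13 stood at 13.7% in M2, 80.6% in M3 and 25.5% in P2. For BURP3 the same shares were 2.54%, 19.8% and 10.1%. Several of these rested on single arrays. Without P2 replicate 1 the P2 share was 14.2% for BURP13 and 3.68% for BURP3. Without P1 replicate 3 the BURP3 shares were 4.09% in M2, 31.9% in M3 and 16.2% in P2.

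The order of the stage levels was P1, M3, P2, M2, M1, P3, Mei1 and An1 for BURP13. Of the 7 neighbouring pairs in that order, M3 stood above P2 (difference 1.84, limma adjusted p = 0.000502, where 3.17% of the probe sets tested were called lower in P2) and M2 above M1. The remaining neighbours, P1 and M3, P2 and M2 (0.76, adjusted p = 0.154), M1 and P3 (0.54, adjusted p = 0.203), P3 and Mei1, and Mei1 and An1, were not told apart. For BURP3 the order was P1, M3, P2, M2, An1, Mei1, M1 and P3, by mean log2 values. P1 stood above M3, and M3 above P2 by 1.18 (adjusted p = 0.0384, with overlapping arrays). P2 and M2 (1.02, adjusted p = 0.0846) and the 4 neighbouring pairs below them were not told apart. Leaving out 1 array moved the difference between P2 and M2 over 0.32 to 1.48, and without P2 replicate 2 it was called (1.48, adjusted p = 0.0175). The difference between M3 and P2 was not called with a pseudocount of 4 (-0.72, adjusted p = 0.0974), with the replicate block (adjusted p = 0.0688) or without any 1 of 5 arrays (M3 replicate 2, 3 or 4, or P2 replicate 2 or 3, adjusted p up to 0.293).

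Within stages the 2 genes tended to be high or low on the same arrays. Their deviations from the stage means had the same sign on 19 of 26 arrays, with a Pearson r of 0.61 and a Spearman rho of 0.72. Over all 26 arrays, stages included, r was 0.855. Points of a stage share its mean and both values of a point share 1 array and its scaling, so these are descriptions. P2 replicate 1 deviated upward by 1.13 for BURP13 and by 1.40 for BURP3. P2 replicate 2 deviated by -0.66 and -0.92, and P2 replicate 3 by -0.47 for both, so the P2 arrays weigh heavily in the Pearson r. P3 replicate 1 deviated downward for both, by -0.48 and -0.49, and so did M2 replicate 1, by -0.97 and -0.37. In P1 the genes parted: BURP3 deviated by -1.08 on replicate 1 and by 1.05 on replicate 3, while BURP13 stayed within 0.10 of its mean on all 3 arrays.

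**Figure D3:**
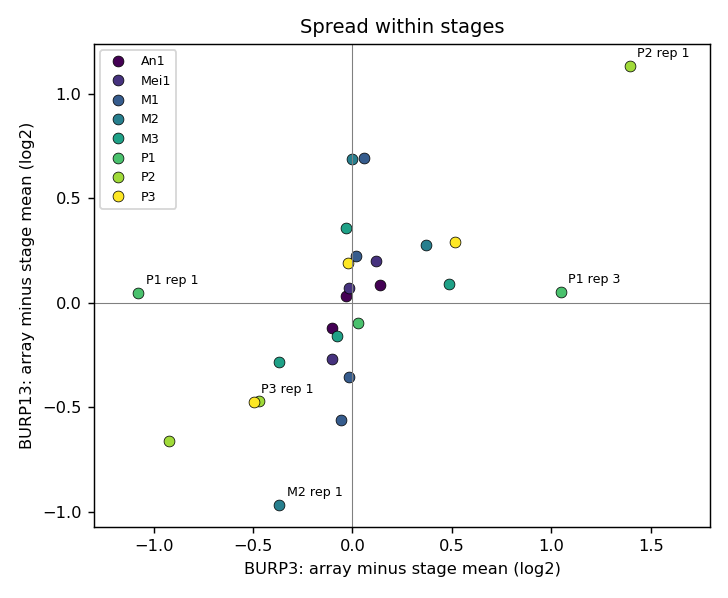
Deviation of each array from its stage mean in log2(intensity + 1), BURP3 on the x axis and BURP13 on the y axis, coloured by stage. P2 replicate 1 is highest for both genes (1.40 and 1.13), and the P1 arrays spread along the BURP3 axis with almost no spread of BURP13.

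The summed intensity of marker lists differed between the same arrays, along with the deviations on some arrays and not on others. The tapetum and pollen wall list has 28 genes, of which 15 were matched by name to a probe set. Its sum was 69.3 to 73.5 in An1, 201 to 319 in M2 and 494 to 586 in M3. It was 474 to 634 in P1, 171 to 271 in P2 and 23.5 to 37.7 in P3. A sum of intensities is weighted to its brightest genes. In M3 these were C4 (145 ± 11.3), AP25 (123 ± 10.7), C6 (106 ± 27.7) and CYP703A3 (92.4 ± 8.69), with n = 4. In P2 the brightest was RTS (144 ± 33.5, n = 3). MSP1, TDL1A, TIP2, API5 and MTR1 had lower means in M3 than in An1. The highest sum in P2 (271) and the lowest in M2 (201) and P3 (23.5) were on the arrays named above. At leptotene the sums were 73.4, 84.9, 94.2 and 125 in the order in which BURP13 read 0.788 to 3.25. Of the germ cell list 5 of 11 genes are on the array, and its M1 sums went the other way, at 35.2, 29.2, 24.2 and 20.6. These sums were mostly MEL1, with an M1 mean of 15.99 ± 5.77 (n = 4). The SDs of the other measured germ cell genes in M1 were 0.0499 to 0.620, and DMC1 had its highest stage mean there. The M1 sums therefore do not show a fall of the list as a whole. Of the 10 late pollen genes listed, 1 is used, ADF1, an actin-depolymerizing factor. It read 20.1, 52.0 and 57.7 in P2 and 40, 163 and 192 in P3, so replicate 1 was lowest in both stages. In M3 both genes were lowest on replicate 1, where the tapetal sum was 562, and the lowest sum (494) was on replicate 3. In P1 the tapetal sums of 514, 634 and 474 did not follow BURP3 at 16.9, 37.4 and 77.0. No stage mean of a listed gene that was measured was 0, the lowest being 0.139. The part of these differences in the results was not tested.

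Genes of the tapetum and pollen wall list, written from known genes, peaked at different stages. Of the 15 measured, 14 passed the F test with a span of at least 1, MTR1 being the exception, against 24.2% of all probe sets tested. The list was chosen with earlier results of these data known. This share and the counts below therefore describe the listed genes and are no independent test. From M1 to M2, the first rise of BURP13, 4 rose and 3 fell (median change 0.20, against 0.05 over all probe sets tested, of which 0.58% were called higher and 0.268% lower). CYP703A3, which hydroxylates fatty acids for the pollen wall, was among the 4 with a change of 3.11, and the lipid transfer protein gene C4 changed by 4.51. From M2 to M3 again 4 rose, and 1 fell (median 0.31, against -0.04; background 1.06% and 0.975%). They included C6, a further tapetal lipid transfer protein gene (5.62), and AP25, an aspartic protease of tapetal cell death (3.52). From M3 to P1 1 rose and 3 fell (median -0.36, against -0.0054; background 0.59% and 0.661%). The riser was RTS, a gene needed for tapetal function (5.17), and those that fell were TIP2, a regulator of tapetal differentiation, CYP703A3 (-2.0) and PTC1, a regulator of tapetal cell death (-2.28). From P1 to P2 8 of the 15 fell and 1, TDL1A, rose (median -1.15, against 0.01; background 2.24% lower and 3.23% higher). C4 (-6.59), AP25 (-5.90) and CYP703A3 (-4.03) changed more at that transition than BURP13 (-2.17) and BURP3 (-3.17) did. C6 (-2.36) lay between the 2 members. EAT1 (-1.90), MSP1 (-1.71), TDR (-1.53) and CP1 (-1.15) changed less than either.

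**Figure D4:**
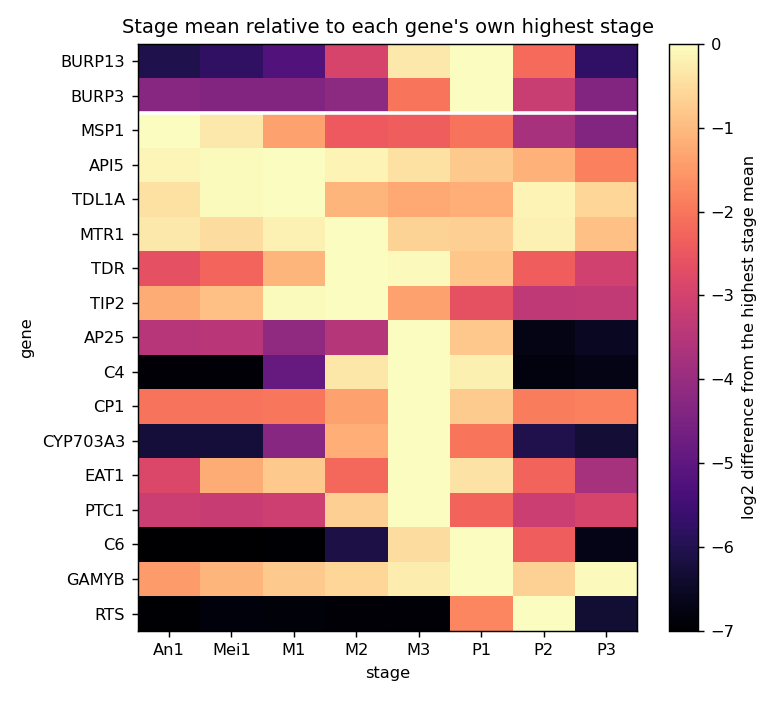
Stage mean of log2(intensity + 1) of BURP13, BURP3 and the 15 measured genes of the tapetum and pollen wall list, as the difference from each gene's own highest stage (colour), with stages in columns and genes ordered by their highest stage. BURP13 and C6 share high values in M3 and P1 and an intermediate value in P2, while C4, AP25 and CYP703A3 are already low in P2.

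The gene with the profile most like that of BURP13 was C6 (LOC4350790), at a Pearson r of 0.947 over the 26 arrays among 1376 genes with a symbol that varied by at least 1 log2 unit. C6 had its highest mean in P1 (146 ± 17.3, n = 3), against 0.147 ± 0.0391 in An1 and 0.420 ± 0.166 in P3. On the P2 arrays C6 read 48.9, 19.1 and 21.8, where BURP13 read 46.7, 12.7 and 14.7. The next were MADS55, a MADS-box gene (r = 0.945), MSRB5, a methionine sulfoxide reductase gene (0.926), and RBCS, the small subunit of Rubisco (0.922). CHS, chalcone synthase of the flavonoid pathway (0.920), and PAL, phenylalanine ammonia-lyase at the entry to phenylpropanoid synthesis (0.914), completed the 6. The RBCS and PAL probe sets carry the suffix (x) that Affymetrix gives to probes shared with other transcripts, so the gene behind them is uncertain. BURP3 ranked 21 in this order. C6 was not first by the 8 stage means, where its r of 0.951 was below those of MADS55 (0.974), RBCS (0.970) and MSRB5 (0.962).

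The genes most like BURP3 were CESA4 (LOC4324625, r = 0.938) and CESA7 (LOC4348853, r = 0.907), cellulose synthase genes of the secondary cell wall. Both shared the spread of BURP3 within P1, on arrays that also went into picking them. CESA4 read 4.52, 5.44 and 11.3 on the P1 arrays and CESA7 read 1.89, 4.09 and 7.78, in the order in which BURP3 read 16.9, 37.4 and 77.0. On the P2 arrays CESA4 read 5.65, 1.19 and 1.18 and CESA7 read 4.16, 0.786 and 0.767, again highest on the array where BURP3 read 9.99. The other 4 were ERG1 (0.902), IAMT1, an indole-3-acetic acid methyltransferase gene (0.895), GT7 (0.889) and C6 (0.886). C6 was the 1 gene in both lists of 6, and BURP13 ranked 14 in the order of BURP3. Correlations over arrays include the differences between stages that all these genes share. With the 8 stage means in place of arrays, 5 of the 6 genes stayed for BURP13 and 3 of the 6 for BURP3. For BURP3, CESA4 (0.964), ERG1 (0.963) and IAMT1 (0.968) stayed, by their r over stage means. CESA7 (0.924), C6 (0.924) and GT7 (0.926) did not, so C6 was in both lists only with the single arrays.

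The other BURP genes with a named probe set were low in these anthers, apart from single arrays. Their 6 probe sets read above 1 on 0 or 1 of the 26 arrays each, where BURP13 did on 19 and BURP3 on 14. BURP10, BURP12 and 1 of the 2 BURP2 probe sets stayed between 0.144 and 0.872 throughout. BURP16, which RefSeq also lists as WGP1, read 27.5 on P3 replicate 1, against 0.364 and 0.412 on the other P3 arrays and at most 0.412 on any other array. BURP17 read 10.1 on that same array, against 0.321 and 0.232 on the other P3 arrays and 0.362 to 0.790 in M1, where it was higher than in the neighbouring stages on every array. From P2 to P3, BURP16 changed by 1.63 (SE 0.62, limma adjusted p = 0.0314) and BURP17 by 1.19 (SE 0.45, adjusted p = 0.0295), where 4.22% of the probe sets tested were called higher. Without P3 replicate 1 these changes were 0.17 and 0.15, under the threshold of 1. Neither was called with quantile-normalized arrays either (1.54 and 1.08, adjusted p = 0.0676 and 0.0694). The F test over stages did not pass for either (adjusted p = 0.151 and 0.148), and the mean of BURP17 in M1 (0.507 ± 0.194, n = 4) was below the 75th percentile of an array. The other BURP2 probe set read 0.252, 0.389 and 1.49 in P1, highest on the array where BURP3 was also highest, and its change from M3 to P1 of 0.46 (adjusted p = 0.0429) was under the threshold of 1.

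**Figure D5:**
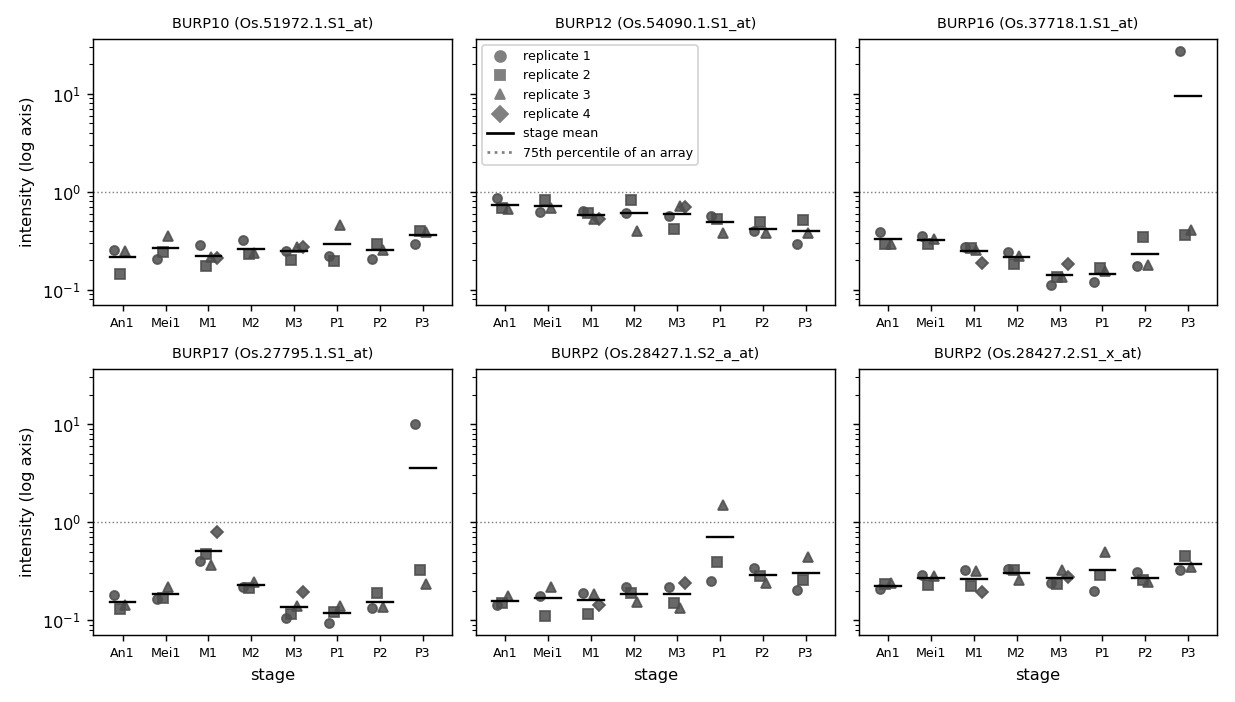
Intensity (log axis) of the 6 probe sets of the 5 other BURP genes on each array by stage, with a symbol for each replicate number, a black line at the stage mean and a dotted line at 1, the 75th percentile of an array. BURP16 (27.5) and BURP17 (10.1) are above 1 on P3 replicate 1 alone, and 1 BURP2 probe set on P1 replicate 3 alone (1.49).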

How the data were processed

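Transcript levels of 26 anther samples were measured on the Affymetrix Rice Genome Array. The authors deposited linear intensity values. Each array had been divided by its 75th percentile, as found from the values. The submitters' processing notes name GCOS 1.3 without its role, and background correction and summary method are not given in the sources used here. Values were analysed as log2(intensity + 1), and 187 control probe sets were left out. Of 57194 probe sets, 47799 (83.6%) were tested: those whose mean log2 level in some stage exceeded the pooled 40th percentile, and all 8 BURP probe sets passed that filter. A fit with 8 stage means over all 26 arrays was made in R 4.3.3 (limma 3.58.1, eBayes with trend), and p-values were adjusted over all probe sets within each test. It was tested on simulated data. Permutation tests used scipy 1.17.1, and figures matplotlib 3.10.9.

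Names came from the array's gene table and, for names and neighbouring genes alone, from the RefSeq table of assembly ASM3414082v1. Of 17905 single genes 2459 had a symbol. Where a gene had several probe sets, the one with the highest mean was used, and genes that merely share a listed name (an aquaporin, a cystatin, a glutelin and others) were dropped. The genes named were the members, all other BURP genes with a named probe set, the 6 profiles most like each member and measured list genes. Members and lists were chosen with earlier results of these data known. Alternatives covered the pseudocount, the filter, scaling, the fit and leaving out arrays. Titles number the replicates without saying that a number is shared between stages, so the fit has no replicate block.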

Additional observations from a re-analysis of the deposited data

How the results depend on the processing

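All 7 transitions of BURP13 kept their direction and their side of the threshold under the 37 alternatives run for each, and so did An1 to Mei1, M2 to M3 and P1 to P2 of BURP3. The called BURP13 changes ran over 1.5 to 2.76 (M1 to M2), 2.12 to 2.95 (M2 to M3), -2.74 to -1.84 (P1 to P2) and -4.35 to -2.38 (P2 to P3). The BURP3 change from P2 to P3 was not called with a pseudocount of 4 (-0.64), array weights (-0.27), the 2 stages alone (-1.20) or without P2 replicate 1 and P3 replicate 1 together, an alternative chosen after seeing the data (-0.26, adjusted p = 0.584 in limma). With 1 array left out it ran from -1.66 to -0.50, M3 to P1 from 1.47 to 2.54, Mei1 to M1 from -0.053 to 0.056 and M1 to M2 from -0.013 to 0.36, and median-centred arrays gave 0.010 for Mei1 to M1. The P2 to P3 calls of BURP16 and BURP17 were lost under 8 and 10 of 37 alternatives, array weights among them (0.21 and 0.24). Uncalled differences near 0 changed sign: BURP13 from Mei1 to P3 (-0.090 median-centred, -0.12 to 0.27 with 1 array left out), BURP3 from M1 to P3 (0.0098 with a pseudocount of 4, 0.42 with array weights, 0.24 without both arrays, -0.27 to 0.24 with 1 left out) and BURP3 from An1 to M2 (-0.10 to 0.27).

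Counts of probe sets past the threshold moved with the pseudocount. With 4, the counts were 5070 (F test), 3, 153, 153, 328, 231, 1081 and 1786 for the 7 transitions in order. With 0.25 they were 18461 (F test), and 1005, 893, 1855, 1104, 4601 and 6477 from the Mei1 to M1 transition on. The values under the settings used are 11560, 10, 545, 405, 971, 598, 2617 and 3965. Array weights gave 36 and a fit of the 2 stages alone gave 35 for An1 to Mei1, and the latter gave 2340 for P2 to P3. With 1 array left out, An1 to Mei1 gave 0 to 15 and M3 to P1 gave 387 to 856. The cause was not tested. No general pairing of arrays by replicate number was seen. Of 85 same-numbered pairs from different stages, 16 had deviations correlated above 0.1, against 40 of 210 other pairs. The highest correlation was 0.538 among same-numbered pairs and 0.409 among the others, so pairing of some arrays is not excluded. With the replicate block BURP13 changed by 2.46 from M1 to M2, and among the BURP results the 1 call lost was BURP3 from M3 to P2 (-1.17). The planned use of another probe set was not possible, as neither member has one. Low intensities, where background is unknown, limit the early stages and P3.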

Other observations

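Of the 3 annotated genes on either side of each member in RefSeq's gene order, 4 have a probe set for BURP13 and 5 for BURP3. The profile of 1 of these 9, LOC4324153, the third gene before BURP3, correlated with that member at a Pearson r of 0.860 over the 26 arrays. Its stage means were 0.362 to 0.858 from An1 to M3, 4.23 in P1, 0.912 in P2 and 0.523 in P3. For the other 8 neighbours r lay between -0.317 and 0.461. This gene was singled out after its values were seen, and the points share arrays and stages.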
